A study of Rattus norvegicus with 6 samples.

Results

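Multi-exon loci without a reference gene were described here: gene loci of the deposited brain transcript annotation in which no transcript was assigned to a gene of the reference annotation and at least 1 transcript had 2 or more exons. The rule used only the structure of the annotation. It was applied to the autosomes, leaving out loci within chromosome 20 from 1 to 6 Mb, chromosome 4 from 161 to 165 Mb and chromosome 15 from 29 to 33 Mb, and it gave 12540 of the 24746 loci in the annotation. All coordinates are those of the rat build rn6. The loci have no gene symbol and are called by their assembly identifiers. No rn6 sequence was used here, so splice sites, open reading frames and polyA signals were not examined.

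PolyA RNA of the whole brain was sequenced in 6 libraries from naïve male rats of 2 inbred strains, with 1 animal per library. The first group was 3 rats of the spontaneously hypertensive strain (SHR, SHR/OlaIpcvPrin) and the second was 3 rats of the BN-Lx strain (BNLx, BN-Lx/CubPrin). The labels name no transgene and no treatment, and ages were not given in the sources used here. Both strains are progenitors of a panel of recombinant inbred rats. Whole brain is a mixture of neurons, glia, vessels and choroid plexus, so that in these comparisons fewer cells of a type and less RNA per cell cannot be told apart.

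A transcript assembler joins spliced reads into transcripts and compares them with a reference annotation. A locus that matches no reference gene can be a gene that the annotation lacks, a long noncoding RNA, a transcript antisense to a known gene, or a fragment of a longer transcript. Splicing gives such loci more weight than single-exon ones, because a read that crosses an intron shows that the RNA was processed and, through the splice site sequence, on which strand it lay. The libraries were not strand-specific, so reads from exon bases that loci on opposite strands share cannot be told apart, and their split between the loci is an estimate of the quantification tool.

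The loci were spread unevenly over the genome, because the deposited annotation assigned no reference gene at all on 11 chromosomes, chromosome 1 and chromosomes 10 to 19. Of the 12540 loci, 8893 (70.9%) lay there, where they made up between 83% and 87.8% of the loci of each chromosome and single-exon loci made up the rest. None of the 27301 transcripts on those chromosomes carried a reference gene, against 13705 of 35042 on chromosomes 2 to 9 and 20. On these 9 chromosomes the remaining 3647 loci (29.1%) stood beside 7472 loci with a reference gene and were between 25.3% and 29.5% of the loci of each chromosome. Of the protein-coding symbols that RefSeq places on the chromosomes of each kind, the annotation named 17 of 11060 (0.154%) on the first and 5823 of 11073 (52.6%) on the second. On chromosomes 1 and 10 to 19 the rule thus took in every multi-exon locus, whereas on chromosomes 2 to 9 and 20 it took in those left after reference genes were assigned. Why the annotation lacks reference genes on 11 chromosomes was not tested, and results are given for both kinds of chromosome.

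**Figure D1:**
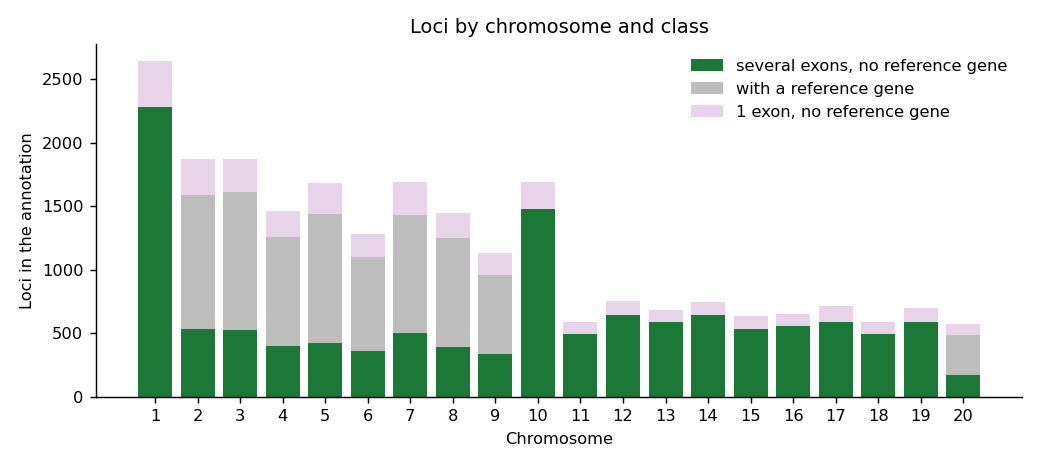
Number of loci on each autosome (x axis) by class: multi-exon loci without a reference gene, loci with a reference gene and single-exon loci without one. Chromosome 1 and chromosomes 10 to 19 show no locus with a reference gene, and chromosome 1 holds 2283 of the multi-exon loci without one.

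The libraries held between 11747000 and 41333100 expected counts, the read numbers that the authors' quantification assigned to loci. Within each strain 1 library differed from both others, SHR 1 and BNLx 3: a chi-square over loci divided by its degrees of freedom was 155 and 143 between SHR 1 and the other SHR libraries and 10.5 between SHR 2 and SHR 3, and it was 107 and 84.4 between BNLx 3 and the other BNLx libraries and 12 between BNLx 1 and BNLx 2. Which libraries shared a sequencing lane was not given in the sources used here. Of 22 listed brain and non-brain cell type markers, 8 had a named locus, all of brain cell types. The 8 listed markers of choroid plexus, pituitary, blood and liver had none, so those tissues could not be checked by name.

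A locus was taken as measured in depth, and tested, when it had at least 50 expected counts in 2 of the 3 libraries of at least 1 strain. Of the 12540 loci, 7946 (63.4%) passed this filter. The share was 71.9% on the chromosomes without reference genes and 42.5% on those with them, against 87.1% of the multi-exon loci that had a reference gene.

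Loci on the chromosomes with reference genes were also shorter and had fewer exons. Loci on chromosomes 2 to 9 and 20 had a median of 3 exons, a median longest spliced transcript of 1818 bases and a median span of 10871 bases. Loci on chromosomes 1 and 10 to 19 had a median of 6 exons, 3432 spliced bases and a span of 20809 bases. Multi-exon loci with a reference gene had a median of 9 exons, 3458 spliced bases and a span of 27715 bases. Taking all multi-exon loci on chromosomes 2 to 9 and 20, with and without a reference gene, the medians were 6 exons, 2900 spliced bases and a span of 20835 bases, so the loci on chromosomes 1 and 10 to 19 resembled the whole set of multi-exon loci elsewhere in number of exons and span.

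Loci with the smallest possible number of exons for the rule were common. Of the 12540 loci, 3440 (27.4%) had 2 exons at most, 3371 had 3 to 5, 2534 had 6 to 10, 2209 had 11 to 20 and 986 had 21 or more. The 2-exon loci were 42.2% of those on chromosomes 2 to 9 and 20 and 21.4% of those on chromosomes 1 and 10 to 19, against 8.32% of multi-exon loci with a reference gene. Across these 5 groups the share past the filter was 28.5%, 55.2%, 82.9%, 92.3% and 97.6%, and the median level was 0.958, 3.21, 13.9, 19.9 and 22.3 TPM (transcript abundance scaled by length and to a fixed library total), as means of the 6 libraries. More exons therefore went with a higher level over all 5 groups. At a given number of exons, loci on chromosomes 2 to 9 and 20 still had the lowest levels: with 6 to 10 exons the median was 6.08 TPM there, 16 TPM on chromosomes 1 and 10 to 19 and 26.6 TPM for loci with a reference gene.

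**Figure D2:**
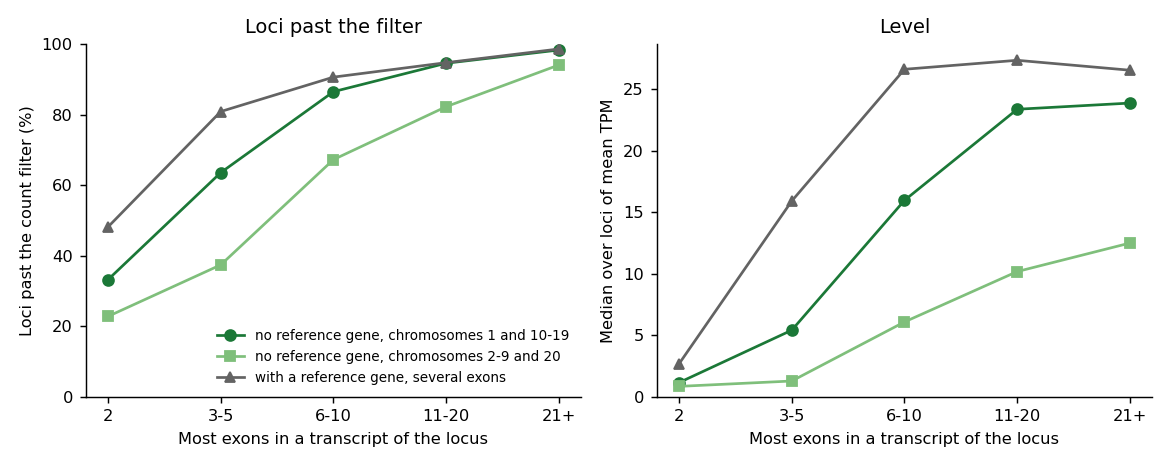
Share of loci past the count filter (left, %) and median over loci of the mean TPM (right) against the most exons in a transcript of the locus, for loci without a reference gene on both kinds of chromosome (circles and squares) and for multi-exon loci with a reference gene (triangles). Both measures were lowest on chromosomes 2 to 9 and 20 in each group, with medians of 6.08, 16 and 26.6 TPM at 6 to 10 exons for chromosomes 2 to 9 and 20, chromosomes 1 and 10 to 19 and loci with a reference gene.

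The 12540 loci comprised 32862 transcripts, of which 5380 were alternative 3′ ends added by aptardi, the program that predicts polyA sites from read coverage and DNA sequence. An aptardi end was present in 8.91% of the loci on chromosomes 2 to 9 and 20 and in 19% of those on chromosomes 1 and 10 to 19, against 38.3% of multi-exon loci with a reference gene. Several transcripts were present in 40.4%, 59.7% and 76.1% of these 3 classes.

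Together the multi-exon loci without a reference gene held between 51.9% and 52.6% of the expected counts of a library and between 47.5% and 49.4% of its TPM. Their share of TPM was 47.9% ± 0.299 in SHR and 48.6% ± 0.703 in BNLx (SD, n = 3 each). The difference of -0.770 percentage points had a two-sided exact permutation p of 0.1, the smallest that 3 against 3 libraries allow. On the scale of expected counts the difference was 0.0881 percentage points, with an exact permutation p of 0.9. Loci on chromosomes 2 to 9 and 20 alone held 9.27% ± 0.483 of TPM in SHR and 10.1% ± 0.373 in BNLx (SD, n = 3 each, exact permutation p of 0.1). Without BNLx 3 the difference over all the loci was -0.365 percentage points.

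Loci that passed the filter were less abundant than loci with a reference gene. Their median was between 15.8 and 18.4 TPM in the 6 libraries, against 25.7 to 29.3 TPM for loci with a reference gene, a mean log2 ratio of -0.68 that was below 0 in 6 of 6 libraries (two-sided exact sign-flip permutation p = 0.031, the smallest that 6 libraries allow). The gap was widest on chromosomes 2 to 9 and 20, where the median was between 8.15 and 10.7 TPM and the log2 ratio to multi-exon loci with a reference gene was -1.54 (exact sign-flip permutation p = 0.031). On chromosomes 1 and 10 to 19 it was between 18.2 and 20.8 TPM, against 20.5 to 24.0 TPM over all multi-exon loci of the other chromosomes, a log2 ratio of -0.19 (exact sign-flip permutation p = 0.031). The 6 libraries measured the same loci, so these p-values refer to repeatability over libraries and not to variation among loci. The levels were concentrated in few loci. The 10 most abundant of the 12540 held between 12.4% and 15.8% of the TPM of these loci in a library. The 100 most abundant held between 30.4% and 35.2%.

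The most abundant locus was STRG.29936 (chr8:181063-182331, plus strand, 3 exons, at the start of the chromosome before Gucy1a2, a subunit of soluble guanylate cyclase). It had 15923, 16077 and 17314 TPM in the SHR libraries and 17704, 18917 and 16473 TPM in the BNLx libraries. The strains overlapped, and the gene-level test gave a log2 fold change of 0.02 for SHR over BNLx (SE 0.16, adjusted p = 0.982, edgeR). STRG.29937 (chr8:181207-182331, minus strand, 2 exons) lies over it and shares 1007 exon bases with it. It had 5812, 6990 and 5691 TPM in SHR and 13246, 14106 and 12211 TPM in BNLx. All 3 SHR libraries were lower than all 3 BNLx libraries, and the locus fell by 1.28 on the log2 scale (SE 0.16, adjusted p = 0.0257, edgeR). Since the libraries carry no strand, this difference rests on how the quantification split reads between the pair.

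The next locus by level was STRG.56241 (chr20:19378588-19485247, minus strand, 2 exons), with 13184, 10986 and 11239 TPM in SHR and 13541, 15103 and 11464 TPM in BNLx. It lies between Phyhipl and Ccdc6, its span covers a 7SK gene on the opposite strand (7SK is a small nuclear RNA that restrains transcription elongation), and it shares 667 exon bases with another of the 10 most abundant loci, STRG.56240 (chr20:19481080-19485844, plus strand), at a mean of 4375 TPM. The other 6 were STRG.36984 on chromosome 10 at 5176 TPM, STRG.53868 on chromosome 18 at 4854 TPM, STRG.52545 on chromosome 18 at 3681 TPM, STRG.1905 on chromosome 1 at 3456 TPM, STRG.46149 on chromosome 14 at 2812 TPM and STRG.5686 on chromosome 1 at 2658 TPM, each a mean of 6 libraries. They had between 3 and 10 exons. Of the 10, only STRG.29937 differed between the strains, and the adjusted p of the other 9 was between 0.653 and 0.991 (edgeR).

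At the other end of structure, 5 loci past the filter had between 81 and 98 exons in a single transcript. STRG.33977 (chr9:37902250-38296977, minus strand, 98 exons) lies between Ccdc115 and Bend6, in an interval where RefSeq, in another assembly, places Dst, which encodes the large cytoskeletal linker dystonin, and Foxo1l. It had 65.2, 122 and 110 TPM in SHR and 71.7, 75.1 and 126 TPM in BNLx, with SHR 1 and BNLx 1 lowest and an overlap of the strains. STRG.21853 (chr5:141039456-141363763, minus strand, 98 exons) lies between Heyl and Ndufs5 at a mean of 61.0 TPM. STRG.2941 and STRG.852 on chromosome 1 and STRG.40888 on chromosome 11 had 93, 81 and 86 exons and means of 38.9, 98.0 and 6.80 TPM. None of the 5 differed between the strains by the gene-level test (adjusted p between 0.855 and 0.984, edgeR).

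The loci with the most transcripts were STRG.4568 on chromosome 1 with 40, STRG.36252 on chromosome 10 and STRG.46452 on chromosome 14 with 36 each, STRG.49035 on chromosome 16 with 33 and STRG.36583 on chromosome 10 with 30. Their mean levels lay between 32.2 and 227 TPM. None differed between the strains in total count (adjusted p between 0.484 and 0.930, edgeR).

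On chromosomes 2 to 9 and 20 the position of the 3647 loci relative to reference genes could be read. Most of them, 2643 (72.5%), overlapped no locus with a reference gene. Another 482 (13.2%) shared exon bases with such a locus on the opposite strand, 346 (9.49%) overlapped its span on the opposite strand without sharing exon bases, and 176 (4.83%) overlapped its span on the same strand. The median level was 2.78 TPM for the 482 loci with shared exon bases and 1.42 TPM for the 2643 loci without overlap. Among the 2643 loci without overlap, a locus with a reference gene lay within 5000 bases on the same strand for 242. It was upstream of 107 and downstream of 135, and within 1000 bases for 51. For 1532 of the 2643 (42% of the 3647) none was within 50000 bases on the same strand. These distances were not counted for loci that overlapped a reference locus on either strand. A start within 1000 bases of the start of an opposite-strand reference locus, an arrangement known from bidirectional promoters, was found for 253 of the 3647 (6.94%).

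RefSeq was used to see what known genes lie between the same neighbours in its own assembly. Of the 3647 loci, 2951 (80.9%) lay between neighbours that have at least 1 RefSeq protein-coding gene between them that the deposited annotation does not name, and 413 (11.3%) between neighbours with none. This describes the interval and not the locus, and no locus was given the name of such a gene.

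The 5 most abundant loci past the filter that overlapped an opposite-strand reference locus spanned 351.6 to 12586 TPM as means of 6 libraries. They were STRG.56241, described above, then STRG.19426 (chr5:6373643-6374671, between Sulf1 and Prex2, 847 exon bases shared with AABR07046778.1), STRG.34123 (chr9:46086873-46095495, 210 exon bases shared with Tbc1d8, a gene of the TBC family of Rab regulators), STRG.33440 (chr9:10001959-10003589, all of its 1631 bases within exons of Slc25a23, a mitochondrial carrier) and STRG.13032 (chr3:58632384-58925124, between Pdk1 and Map3k20, 14 exons), which lies opposite AABR07052510.1 without shared exon bases. STRG.19426 had 2311, 2337 and 2084 TPM in SHR and 2504, 3013 and 2537 TPM in BNLx. All 3 SHR libraries were lower, but the log2 difference of -0.34 did not pass the test (adjusted p = 0.516, edgeR), and none of the other 4 passed it either.

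Between the strains, 85 of the 7946 tested loci (1.07%) differed in total count at an adjusted p of 0.05 or less, with 36 higher and 49 lower in SHR (edgeR quasi-likelihood test, Benjamini-Hochberg over all 14471 loci tested). Over all 14471 loci 1.02% were called, 0.504% as higher and 0.511% as lower, so the share among the loci without a reference gene was near that of the whole table. It was 1.00% (64 of 6395) on chromosomes 1 and 10 to 19 and 1.35% (21 of 1551) on chromosomes 2 to 9 and 20, against 0.470% (24 of 5108) of multi-exon loci with a reference gene. The differences between these shares were not tested. The median log2 fold change was 0.01 over the tested loci and 0.00 over the whole table. In all 85 loci the 3 SHR libraries and the 3 BNLx libraries did not overlap. A call from 3 against 3 libraries largely requires this, and non-overlap was not counted over all loci. The count of called loci depended on single libraries. It was 3 without SHR 2, 20 without SHR 3, 5 without BNLx 1 and 18 without BNLx 2, against 81 without SHR 1 and 89 without BNLx 3. The whole table of 14471 loci also depended on them. There the count was 12 without SHR 2, 36 without SHR 3, 14 without BNLx 1 and 38 without BNLx 2. It was 128 without SHR 1 and 156 without BNLx 3. In these 6 fits the median absolute log2 fold change of the 85 loci was between 2.41 and 2.67. Their direction was kept, which the lack of overlap between the strains fixed beforehand. With both SHR 1 and BNLx 3 left out, 2355 of the 7946 loci (29.6%) were called, beside 28.8% of the whole table, and all 85 loci were among them.

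The loci that differed often had few exons and low levels, and their changes were large. Their median absolute log2 fold change was 2.58, against 0.191 over the tested loci, and 56 of the 85 differed by 2 or more on the log2 scale. Of the 85, 35 (41.2%) had 2 exons, against 12.4% of the tested loci, and 14 (16.5%) had 11 or more, against 37.8%. Put the other way, 3.56% of the tested 2-exon loci were called, 1.5% of those with 3 to 5 exons, 0.381% of those with 6 to 10 and 0.466% of those with 11 or more. The median level was 8.75 TPM for the 85 and 17.7 TPM for the tested loci, and the median longest spliced transcript was 4284 bases for the 85 and 4616.5 bases for the tested loci.

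Among the 10 loci that were highest in SHR by fold, 3 had a count of 0, after rounding, in every BNLx library. STRG.1500 (chr1:66637804-66645217, minus strand, 2 exons) had 6.41, 9.72 and 11.2 CPM (counts normalized to library size) in SHR and 0 in the 3 BNLx libraries. It was at least 46.6-fold higher in SHR, taking 3 counts per BNLx library as the limit that a count of 0 allows (adjusted p = 0.0163, edgeR). STRG.51315 (chr17:34939503-34945354, minus strand, 3 exons) had 4.6, 9.01 and 10.5 CPM in SHR and 0 in BNLx, where 1 library had an expected count of 0.01, and was at least 41.2-fold higher (adjusted p = 0.0257, edgeR). Both were read in every SHR library, with SHR 1 lowest in each. STRG.1500 shares 1754 exon bases with STRG.1499 on the opposite strand, which was also at 0 CPM in every BNLx library. STRG.51315 shares 1286 exon bases with the single-exon locus STRG.51314 on the opposite strand, which had up to 2.44 CPM in BNLx. The bound for STRG.51315 therefore also rests on how the quantification split reads between these loci.

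STRG.31521 (chr8:72476838-72510226, plus strand, 2 exons) lies between Herc1 and Rab8b and had 2.55, 2.80 and 2.98 CPM in SHR and 0 in BNLx, at least 14.2-fold higher (adjusted p = 0.0179, edgeR). All of its 1963 spliced bases lie within exons of Aph1b on the opposite strand, a gene for a subunit of gamma-secretase. Aph1b itself had a log2 fold change of 0.17 (adjusted p = 0.751, edgeR). The bound for STRG.31521 therefore also rests on how the quantification split reads between it and Aph1b. STRG.12606 (chr3:31426362-31441496, minus strand, 2 exons, between Gtdc1 and Acvr2a) had 1.28, 3.13 and 4.77 CPM in SHR and 0 in BNLx, with at least 50 counts in every SHR library, but did not pass the test (at least 15.7-fold, adjusted p = 0.0932, edgeR). STRG.1500, STRG.12606 and STRG.31521 were the 3 loci with an expected count of exactly 0 in one strain and 50 or more counts in every library of the other, and no locus showed the reverse. The smallest libraries, BNLx 2 and BNLx 3, belong to the strain with 0, so the directions were not equal in depth.

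The most abundant of the 10 loci with the largest increase, by CPM and by TPM, was STRG.35258 (chr9:100154128-100171723, plus strand, 2 exons, 8 transcripts), which lies between Gpr35, a G protein-coupled receptor gene, and Kif1a, a gene for an axonal kinesin motor. It had 78.8, 189 and 155 CPM in SHR and 0.898, 0 and 0 CPM in BNLx, with a log2 fold change of 8.30 (SE 0.93, adjusted p = 0.0179, edgeR). It shares 2018 exon bases with the single-exon locus STRG.35257 on the opposite strand, which went the other way with 346, 337 and 344 CPM in SHR and 539, 633 and 620 CPM in BNLx, a log2 fold change of -0.80 (adjusted p = 0.0483, edgeR). Reads over the shared bases cannot be assigned to a strand in these libraries.

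STRG.24135 (chr6:43123992-43126224, minus strand, 2 exons) lies between Hpcal1, a neuronal calcium sensor gene, and Itgb1bp1. It had 26.1, 12.6 and 9.30 CPM in SHR and 0.186, 0.262 and 0 CPM in BNLx (log2 fold change 6.64, adjusted p = 0.0179, edgeR). STRG.11132 (chr2:225067987-225070186, plus strand, 2 exons) lies between Cnn3 and F3, the gene for tissue factor, and had 2.67, 3.13 and 3.62 CPM in SHR and 0.062, 0 and 0 CPM in BNLx (log2 fold change 6.34, adjusted p = 0.0148, edgeR). Every SHR library was far above every BNLx library at both loci. The remaining 4 lay on chromosomes without reference genes. STRG.51836 (chr17:63110326-63111600), STRG.5178 (chr1:213723807-213731311), STRG.43895 (chr13:90024601-90025570) and STRG.4504 (chr1:189207078-189233388, 11 exons) had log2 fold changes of 6.57, 4.98, 4.92 and 4.64 and adjusted p between 0.0157 and 0.0448 (edgeR).

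Of the 10 loci that were lowest in SHR by fold, 4 lay close together on chromosome 19. STRG.54590 (chr19:26606685-26616198, minus strand, 2 exons) had 0.046, 0.047 and 0.046 CPM in SHR and 3.62, 2.88 and 5.93 CPM in BNLx, and fell by 6.32 on the log2 scale (SE 0.49, adjusted p = 0.0068, edgeR). STRG.54666 (chr19:28159232-29198536, plus strand, 5 exons, 11 transcripts) had 2.99, 1.56 and 2.70 CPM in SHR and 37.2, 35.7 and 62.3 CPM in BNLx, and fell by 4.20 (SE 0.36, adjusted p = 0.0081, edgeR). The pair STRG.54608 and STRG.54607, which start at the same base 26935245 on opposite strands and share 1450 exon bases, fell by 5.91 and 5.18 (adjusted p = 0.0170 and 0.0072, edgeR). In all 4 the highest SHR library was below the lowest BNLx library.

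Others of the 10 lay on chromosomes with reference genes. STRG.23921 (chr6:30643067-30644267, plus strand, 2 exons, a spliced length of 279 bases) lies between Itsn2, an endocytic scaffold gene, and Ldah, a lipid droplet hydrolase gene. It had 0.070, 0.142 and 0.183 CPM in SHR and 7.62, 9.76 and 6.93 CPM in BNLx, and fell by 5.99 on the log2 scale (SE 0.41, adjusted p = 0.0046, edgeR). STRG.11796 (chr2:262798063-262803618, minus strand) lies between Fpgt and Negr1, a gene for a neuronal cell adhesion molecule, and had 0.395, 0.569 and 0.183 CPM in SHR and 8.74, 11.6 and 5.54 CPM in BNLx (log2 fold change -4.48, adjusted p = 0.0179, edgeR). It shares 1374 of its 1748 spliced bases with AABR07013914.1 on the opposite strand, which had a log2 fold change of 0.10 (adjusted p = 0.887, edgeR). At STRG.23921 and STRG.11796 every SHR library was far below every BNLx library.

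STRG.33859 (chr9:27345067-27351208, minus strand, 2 exons) lies between Tram2 and Gsta1 and had 0.604, 0.474 and 0.596 CPM in SHR and 7.84, 8.72 and 6.24 CPM in BNLx, with a log2 fold change of -3.75 (SE 0.26, adjusted p = 0.0046, edgeR). All of its 452 exon bases lie within exons of Tmem14a on the opposite strand, a gene for a small membrane protein, which had 22.7, 18.7 and 21 CPM in SHR and 45.8, 43.4 and 38.3 CPM in BNLx and also fell (log2 fold change -1.03, adjusted p = 0.0248, edgeR). The part of either locus in the change of the other was not tested. STRG.26893 (chr7:20267846-20436428, plus strand, 4 exons), STRG.53391 (chr18:53552391-53568069) and STRG.36190 (chr10:15577166-15577982) completed the 10, with log2 fold changes of -3.82, -6.12 and -5.87 and adjusted p between 0.0091 and 0.0223 (edgeR).

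**Figure D3:**
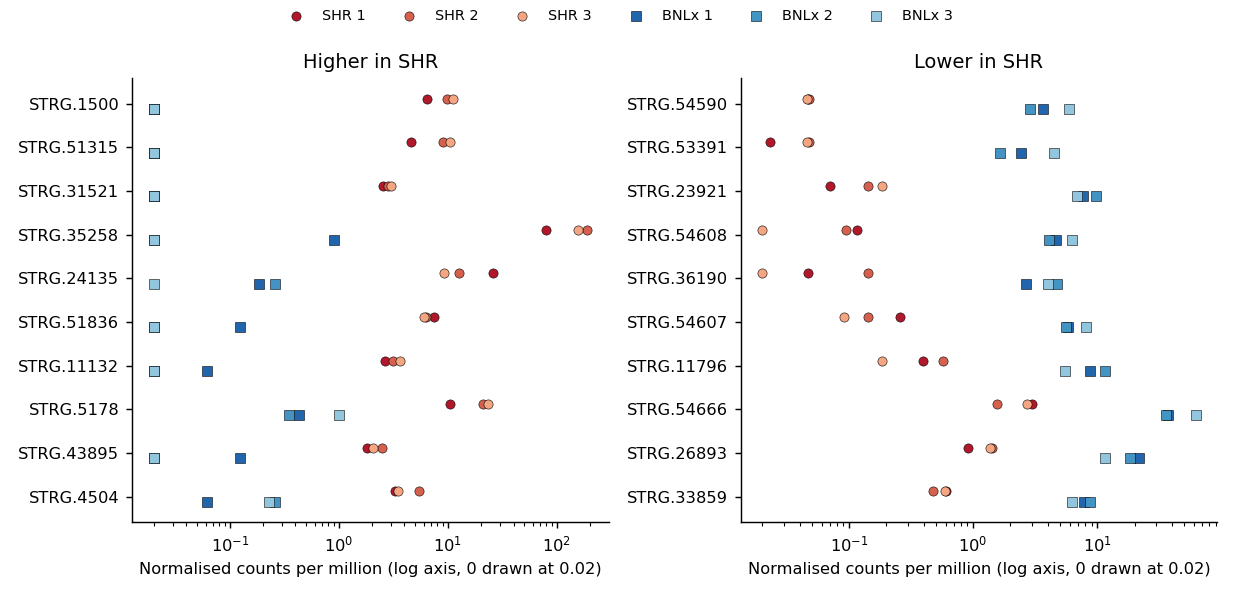
Normalized counts (CPM, log axis, a value of 0 drawn at 0.02) of the 10 loci with the largest increase in SHR and the 10 with the largest decrease, with 1 point per library, SHR as circles and BNLx as squares. The 20 loci were chosen among called loci whose strains do not overlap. STRG.1500, STRG.51315 and STRG.31521 were at 0 after rounding in all 3 BNLx libraries.

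How many of the 20 loci with the largest changes and STRG.29937 kept their call depended on which library was left out. The direction of the 21 could not turn in these fits, because their strains do not overlap. Called were 0 of the 21 without SHR 2, 1 without BNLx 1, 5 without SHR 3, 8 without BNLx 2, 15 without SHR 1 and 20 without BNLx 3. Of the 6 fits that each left out 1 library, STRG.23921 was called in 5, STRG.54590, STRG.54607 and STRG.33859 in 4 and STRG.43895 in 0. With SHR 1 and BNLx 3 both left out, all 21 were called.

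Called loci lay in runs along some chromosomes. Joining neighbours that were at most 1 Mb apart, 31 of the 85 fell into 10 runs, and 8 of the runs held loci of 1 direction. Chromosome 19 had 14 called of 393 tested (3.56%), of which 13 were lower in SHR. Of these, 9 lay between 26196839 and 29324268, where 17 loci were tested, 14 of them had a log2 fold change below 0 and the median over the 17 was -2.06. Another 3 of 5 tested were lower at the start of the chromosome, between 134452 and 459106. All 5 called loci on chromosome 7 were also lower in SHR, and 3 of them, STRG.26893, STRG.26901 and STRG.26934, lay between 20267846 and 21228114 in the interval from Rps28 to Fbxo7, where 10 were tested and 9 had a log2 fold change below 0. In the other direction, STRG.6407, STRG.6409 and STRG.6420 were higher between 261960661 and 263289662 on chromosome 1, where 10 were tested. A run of 3 on chromosome 17 (63110326 to 63145647) held both directions: STRG.51836 was higher and STRG.51837 and STRG.51839 were lower. The called loci set the bounds of a run and are among the tested loci counted in it, so these medians and signs partly restate the calls. The number of runs over all loci was not counted. Loci in a run share a region of the genome, some of them overlap, and they are not independent observations.

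Overlap on the opposite strand was common among the called loci. Of the 85, 37 (43.5%) shared exon bases with another locus on the opposite strand, against 36.1% of the tested loci. The other locus was itself without a reference gene and multi-exon in 25 of the 37 and had a reference gene in 5. It could be tested in 26, had the same sign in 14 of these and was called in 7, 4 times in the same direction. The exceptions were STRG.35258 with its single-exon partner and the pair STRG.51836 and STRG.51837, which moved in opposite directions.

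Single isoforms were tested over the whole table of 32348 and called where the unadjusted p did not exceed 0.001. Of the 17206 tested isoforms of these loci, 148 (0.860%) differed between the strains, 66 higher and 82 lower in SHR, in 119 loci, beside 1.00% of the whole table (edgeR). Of the 148, 85 also had an adjusted p of 0.05 or less, 28 ended at an aptardi site, 55 belonged to a locus that was called and 93 to a locus that was tested and not called. The count was 82 without SHR 2 and 92 without SHR 3, without BNLx 1 and without BNLx 2. Over the whole table it was 183 without SHR 2, 187 without SHR 3, 207 without BNLx 1 and 208 without BNLx 2. With SHR 1 and BNLx 3 both left out, 428 isoforms of these loci were called (2.49%), beside 2.92% of the whole table. Only 74 of the 148 were among the 428. Fits without 1 library kept between 66 and 100 of the 148.

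The leading isoform higher in SHR was STRG.4796.1, with 84.1 ± 6.35 CPM in SHR and 1.80 ± 0.613 CPM in BNLx (SD, n = 3 each, log2 fold change 5.52, adjusted p = 0.0088, edgeR), at a locus whose total did not pass the test (log2 fold change -0.14, adjusted p = 0.775, edgeR). STRG.41946.7.1, STRG.40611.1.1 and STRG.16820.1.1 are aptardi isoforms with a count of 0 in BNLx after rounding and averages of 74.4 ± 3.44, 55.5 ± 5.21 and 69.7 ± 15.1 CPM in the 3 SHR animals (± SD), which was at least 376-fold, 281-fold and 353-fold higher. In the other direction STRG.41946.4.2 and STRG.41945.9 had a count of 0 in SHR and averaged 75.9 and 67.1 CPM in BNLx, at least 647-fold and 572-fold lower in SHR. STRG.41946 and STRG.41945 lie on opposite strands and share 2520 exon bases. The bounds for their isoforms therefore rest on how the quantification split reads between them. The remaining leaders were STRG.54082.1, higher by 2.74 on the log2 scale, and STRG.29937.5, STRG.5151.1 and STRG.12892.14, with log2 fold changes of -2.88, -3.19 and -4.42. All 10 had adjusted p between 0.0088 and 0.0146 (edgeR).

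Isoforms seen in 1 strain only were more numerous than loci seen in 1 strain only, but more isoforms (17206) than loci (7946) were tested. In these loci 38 isoforms were at 0 in every BNLx library with at least 50 counts in every SHR library, and 17 were the reverse. The smallest libraries belong to BNLx, so the directions were not equal in depth. Such isoforms were not counted over the whole table. The isoforms of the 2 directions included 10 and 6 aptardi isoforms and lay in 33 and 15 loci.

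The use of isoforms within a locus, that is whether isoforms of 1 locus changed by different amounts, differed in 165 of the 4171 loci that had several isoforms past the filter (3.96%, diffSpliceDGE of edgeR, adjusted p of 0.05 or less), beside 4.37% of all 7742 loci tested. The share was 3.71% (132 of 3555) on chromosomes 1 and 10 to 19 and 5.36% (33 of 616) on chromosomes 2 to 9 and 20, against 4.88% (156 of 3195) of multi-exon loci with a reference gene. Of the 165, 9 were also called for their total count and 156 were tested and not called, and 80 had an aptardi isoform past the filter. The count was 95 without SHR 3 and 105 without SHR 2, and it was 287 without SHR 1 and 271 without BNLx 3. With SHR 1 and BNLx 3 both left out it was 835, beside 23.0% of all loci tested.

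In the 5 loci that led this test the total count did not pass the gene-level test (adjusted p between 0.749 and 0.997, edgeR) while the shares of their isoforms differed. At STRG.5697 (chr1:226435645-226498013, plus strand, 20 isoforms past the filter, usage adjusted p = 3.13e-17, edgeR) the aptardi end at 226496174 took 37.3%, 54.5% and 54.4% of the isoform counts in SHR and 3.71%, 1.84% and 0.120% in BNLx. The aptardi end 100 bases further on, at 226496274, took 0%, 0.008% and 0.577% in SHR and 29.4%, 31.1% and 27.9% in BNLx. The longer original end at 226498013 took 62.7%, 45.5% and 45.0% in SHR and 66.9%, 67.0% and 72.0% in BNLx. The strains thus differed mainly in which of a pair of ends 100 bases apart received the counts, and aptardi predicts ends in bins of 100 bases.

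At STRG.41946 (chr12:36640143-36642739, minus strand, usage adjusted p = 1.63e-10, edgeR) 4 ends differed between the strains. This locus shares 2520 exon bases with STRG.41945 on the opposite strand, so its shares also rest on how the quantification split reads between the loci. The end at 36641067 took 26.4%, 29.9% and 29.2% in SHR and 0% in every BNLx library. The end at 36640967, 100 bases further along the transcript, took 0% in every SHR library and 27.7%, 33.7% and 24.4% in BNLx. The end at 36641039 took the largest share in SHR, 49.8%, 44.8% and 43.5%, and 19.9%, 18% and 10.2% in BNLx. The original end at 36640143 took 23.8%, 25.4% and 27.3% in SHR and 52.4%, 48.3% and 65.5% in BNLx, so the longest form was the smaller share in every SHR library.

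At STRG.40611 (chr11:76741747-76804843, minus strand, usage adjusted p = 7.14e-10, edgeR) the aptardi end at 76742154 took 56.4%, 49.2% and 48.9% in SHR and 0% in every BNLx library, while the end at 76742184, 30 bases before it, took 22.1%, 22.1% and 22.5% in SHR and 64.5%, 55.4% and 84.7% in BNLx. At STRG.7386 (chr2:27983884-27991172, minus strand, usage adjusted p = 1.99e-07, edgeR) the aptardi end at 27983884 took 18.5%, 12.4% and 9.92% in SHR and 44.6%, 50.5% and 28.1% in BNLx, with the rest at an original end 201 bases before it. At STRG.51249 (chr17:31441523-31504988, plus strand, usage adjusted p = 7.98e-14, edgeR) the ends were all original, and the first, at 31444667, took 7.66%, 7.22% and 7.19% in SHR and 17.3%, 14.6% and 16.9% in BNLx. The strains did not overlap in any of these shares. STRG.51249 shares 3759 exon bases with STRG.51247 and STRG.7386 shares 300 with Gfm2, on the opposite strand in both cases.

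**Figure D4:**
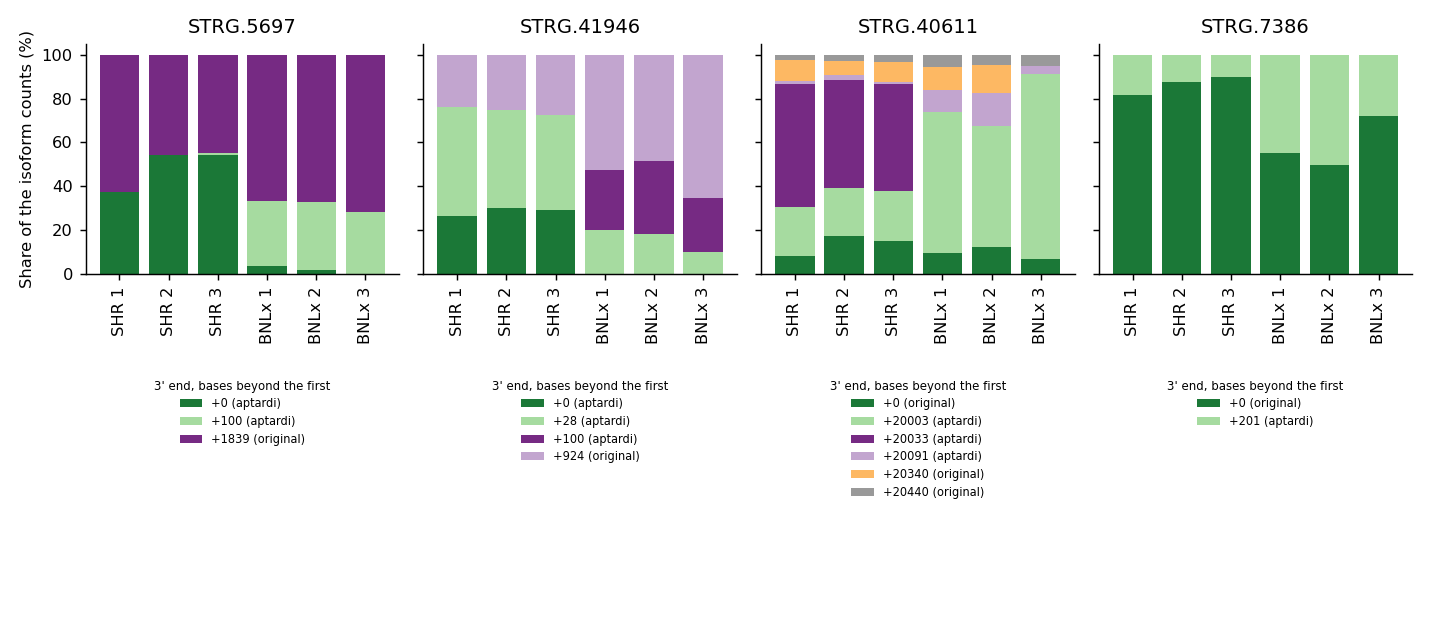
Share of a locus' isoform counts (%, y axis) at each 3′ end in each library, for 4 loci that lead the usage test and have aptardi ends, with ends given in bases beyond the first end in the direction of transcription. At STRG.5697 the SHR libraries use the first end (37.3% to 54.5%) and the BNLx libraries the end 100 bases on (27.9% to 31.1%).

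The animals of a strain differed from each other mainly through SHR 1 and BNLx 3. The median coefficient of variation of CPM among the 3 animals was 15.1% in SHR and 16.1% in BNLx. With SHR 1 and BNLx 3 left out it was 5.28% and 6.75%. Loci on chromosomes 2 to 9 and 20 varied more, at 19.6% in SHR and 21.5% in BNLx, than those on chromosomes 1 and 10 to 19, at 14.1% and 15.2%, while multi-exon loci with a reference gene varied by 13.7% and 13.8%. SHR 1 was more than 2-fold away from both other SHR libraries at 10.1% of the tested loci and BNLx 3 from both other BNLx libraries at 12%, against 0.604% for SHR 2 and 0.390% for BNLx 1.

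At a few loci animals of the same strain differed many-fold. At 19 of the 7946 tested loci the highest animal exceeded the lowest by 10-fold or more in both strains, where the median ratio over the tested loci was 1.33 in SHR and 1.36 in BNLx. This ratio has no value where the lowest animal has no counts, so such loci are not among the 19, however wide their spread. The lowest libraries of the 19 formed 2 patterns. In 11 of the 19 the lowest libraries were SHR 2 and BNLx 2, and in 8 they were SHR 1 and BNLx 3. Over all tested loci SHR 2 and BNLx 2 were both lowest at 12.2% and SHR 1 and BNLx 3 at 22.5%.

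The first pattern was led by STRG.52545 (chr18:15532963-15540187, minus strand, 4 exons), one of the 10 most abundant loci. It had 1709, 6.54 and 395 CPM in SHR and 2188, 9.94 and 1590 CPM in BNLx. One animal of each strain, SHR 2 and BNLx 2, thus had less than 10 CPM where the lowest of the others had 395, and the locus held between 0.0056% and 1.60% of the TPM of all multi-exon loci without a reference gene. STRG.40964 (chr12:942974-988543) was lowest in the same libraries, with 43.4, 0.569 and 11.5 CPM in SHR and 39.0, 0.697 and 56.6 CPM in BNLx. So was STRG.4142 (chr1:166933245-166951892), with 18.1, 0.474 and 3.89 CPM in SHR and 12, 0.174 and 14.0 CPM in BNLx.

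The second pattern followed the libraries that stood apart as a whole. STRG.4176 (chr1:167906063-167924182, minus strand, 4 exons) had 1.35, 33.7 and 21.4 CPM in SHR and 32.6, 43.3 and 1.15 CPM in BNLx. STRG.14354 (chr3:123593953-123607609, minus strand, 18 exons) had 0.371, 8.53 and 8.43 CPM in SHR and 13.9, 14.0 and 0.462 CPM in BNLx. In both loci SHR 1 and BNLx 3 were far below the other 4 libraries. Both patterns were read from the values after they were seen, and what set these animals apart was not tested.

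**Figure D5:**
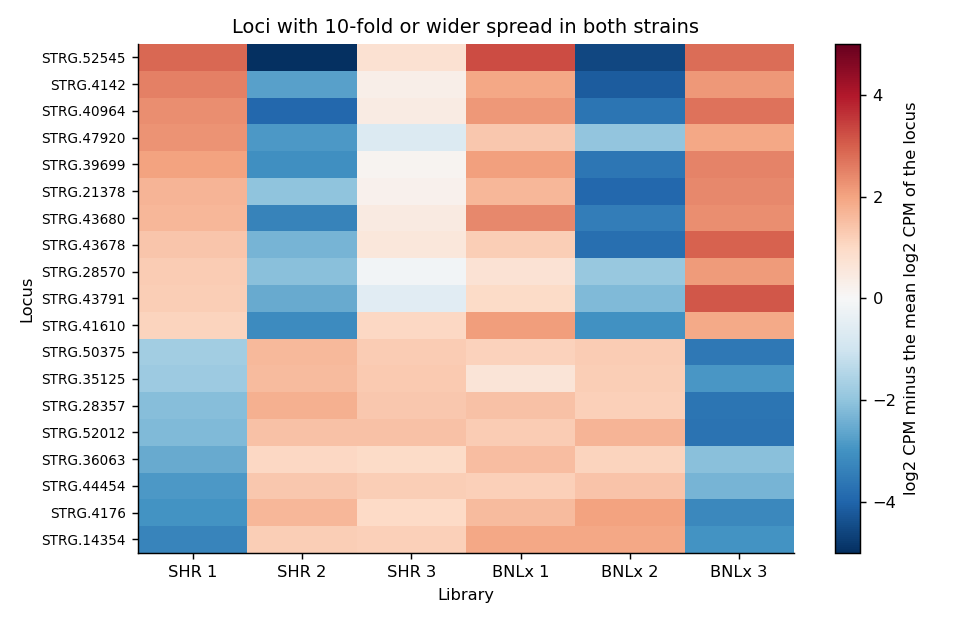
Heat map of the 19 loci (rows) that differ 10-fold or more between animals of both strains in the 6 libraries (columns), coloured by log2 CPM minus the mean log2 CPM of the locus, red for above and blue for below. All 19 had counts in every library. SHR 2 and BNLx 2 are blue in the upper 11 loci, and SHR 1 and BNLx 3 in the lower 8.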

How the data were processed

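Whole-brain polyA RNA of 3 SHR and 3 BNLx rats was sequenced as paired reads from unstranded TruSeq libraries. The authors trimmed reads with cutadapt, aligned them with HISAT2 to strain-specific versions of rn6, built transcripts from the merged alignments with StringTie 1.3.5 and Ensembl release 99 as guide, added 3′ ends with aptardi 1.0.0 and ran RSEM on each library. The genome sequence given to RSEM was not established. The values deposited are expected counts per isoform and per locus, without normalization, and TPM, which the authors' RSEM run scaled by length within each library. Reads were assigned to the assembled loci only, so a locus' value depends on how overlapping loci shared reads, and low loci rest on few counts: 3 counts was taken as the limit that a count of 0 allows, and such bounds cover counting error only.

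Rounded expected counts entered edgeR 4.0.16 (R 4.3.3, TMM, two-sided quasi-likelihood test of SHR over BNLx with no other term). A locus or isoform was tested if 2 of 3 libraries of either strain reached 50 counts. Loci and usage (diffSpliceDGE) were called at a Benjamini-Hochberg adjusted p of 0.05 and isoforms where the unadjusted p was at most 0.001, the study's own threshold. Single values per library were compared by exact permutation. In counts simulated from the observed means and library sizes, edgeR found 13.4%, 83.6% and 90.9% of loci changed 2-, 4- and 16-fold with 9 false calls among 14471 loci. The same step recovered 4.48%, 34.3% and 77.3% of isoforms, with 26 false calls among 32348. The usage test found 59.6% of loci with an isoform changed 16-fold, with 22 false calls among 7742. DESeq2 found 50.7%, 92.5% and 97.0% of the changed loci, with 82 false calls. It found 16.4%, 65.7% and 84.8% of the changed isoforms, with 243 false calls. These rates describe the simulated counts only. Whether they hold where a library stands apart from the others of its strain, as in these data, was not tested.

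Loci named are up to 10 per direction with the largest change among those called without overlap, the 10 with the highest mean TPM, the 5 with the most exons, the 5 leaders of the usage test, those at 0 in one strain and at 50 or more counts in each library of the other, the 5 leading isoforms per direction, the 5 most abundant opposite a reference locus and the 5 with the most transcripts. Partner loci, runs and the 19 loci that vary between animals were chosen after their values were seen. The loci, lists and tests were chosen with earlier results of these data known. Names of neighbours come from the annotation. RefSeq was used for symbols and neighbourhood only, from the GRCr8 assembly and without its coordinates.

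Alternatives were DESeq2 1.42.0, its size factors within edgeR, filterByExpr, no filter, other thresholds, limma 3.58.1 on log2(TPM + 1) and log2(TPM + 0.1) and on voom weights, a replicate block, and fits without certain libraries. Comparisons by kind of chromosome were added after the data were seen. The replicates are separate rats according to the labels.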

Additional observations from a re-analysis of the deposited data

How the results depend on the processing

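The 85 called loci had the same direction under every alternative fit, which carries little weight because their strains do not overlap. The number called was 84 with DESeq2 size factors, 114 with filterByExpr, 101 without a filter, 81 and 79 with limma on log2(TPM + 1) and log2(TPM + 0.1), and 111 at an unadjusted p of 0.001. It was 320 with DESeq2 (4.03%, beside 3.75% of the whole table) and 2355 with SHR 1 and BNLx 3 both left out. Both sets held all 85. Leaving out 1 library gave 3 to 89, and 12 to 156 over all 14471 loci. Isoform calls were 604 with DESeq2, 428 with both libraries left out, 85 at an adjusted p of 0.05 and 82 to 194 with 1 library left out. Usage calls were 90 with limma on voom weights, 835 with both libraries left out and 95 to 287 with 1 left out. The cause was not tested.

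The replicate numbers were not taken to pair the animals, since the deviations of same-numbered animals correlated at -0.04, 0.32 and -0.20. With the replicate number as a block, edgeR called 0 of these loci and 0 of all 14471 loci. Of these loci, 689 had an unadjusted p under 0.05 (854 without the block, edgeR). DESeq2 without the block called 320. The median absolute log2 fold change of the 85 loci was 2.58 with and without the block. The block gave 20 isoform calls and 138 usage calls.

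The difference in share of TPM was 0.0881 percentage points on counts and 0.0464 for chromosomes 1 and 10 to 19 alone, both opposite in sign to the main value, and -0.365 to -0.989 with 1 library left out. The log2 ratio of medians was -0.67 to -0.68 with 1 library left out, where 5 libraries allow no exact permutation p under 0.0625. The median coefficient of variation, 15.6% over both strains, was 6.02% with both libraries left out. The 242 loci without overlap that lay within 5000 bases of a same-strand reference locus were 51 within 1000 and 1111 within 50000. Of the groups by number of exons, the 2-exon loci passed the filter least often, at 28.5%. They also had the lowest median level, 0.958 TPM, and the lowest median spliced length, 1237 bases. The part of depth was not tested.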
